A study of Homo sapiens with 19 samples.

Results

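The early response of macrophage-like cells to vit C was measured 8 h after its addition. THP-1, a human monocytic leukaemia cell line, was differentiated with 30 nM phorbol myristate acetate (PMA), rested, and either given vit C at 0.1 mM or left untreated (UT), and the RNA of each flask was hybridised to an Agilent one-colour array. Both groups thus carried the PMA treatment and differed by vit C. There were 2 UT and 3 vit C-treated arrays at 8 h, out of 19 arrays that also covered 24, 48 and 96 h. All of them came from flasks of 1 cell line. The spread behind each limma p-value below is pooled within the 8 groups over all 19 arrays. It is a spread between such flasks and, in the groups that lay on more than 1 slide, also between slides. A gene was described when 1 of its probes was flagged well above background throughout the UT arrays, throughout the vit C arrays, or both, at 8 h, which held for 21131 of the 31033 gene names on the array. Of these, 19188 had such a probe on all 5 arrays, 1640 qualified through the UT arrays alone and 278 through the vit C arrays alone.

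Vit C, or ascorbate, is an electron donor for the iron-dependent dioxygenases, a family that hydroxylates collagen and the hypoxia-inducible factors (HIFs) and removes methyl groups from histones and DNA. It also reduces ferric iron. Macrophages take it up through sodium-coupled transporters, and in its oxidised form through glucose transporters, and they handle much of the body's iron. PMA, which switches on protein kinase C, leaves THP-1 cells adherent and secreting cytokines.

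All 20 genes of a monocyte and macrophage list (CSF1R, TYROBP, CD14, CD68 and others) were among the genes measured, and none of the 16 that could be tested passed, the other 4 having probes of opposing sign (0 higher and 0 lower with limma, and also 0 at an unadjusted p and by the methods' t-test, which is the unmoderated test per time point that the study's methods name, run here on the same values). Their summed linear signal, relative to each array's 75th percentile, was 1320 to 1490 in UT arrays and 1120 to 1290 in vit C arrays. Markers of other lineages varied in number: 4 of 8 T cell genes, 2 of 7 fibroblast genes, 1 of 6 epithelial genes and 2 of 6 erythroid genes were measured, and their summed signals stayed at or below 7.08 on every array. Of the 6 B cell genes 5 were measured, with a sum of 1.78 to 2.51 in UT and 3.9 to 4.4 in vit C arrays, mostly through CD79A. All 5 genes of neutrophil granules, which myeloid leukaemia cells also express, were measured, with a sum of 48 to 49.6 in UT and 37.2 to 41.8 in vit C arrays and a median change of -0.32.

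The layout of the arrays touches every result below. According to the file headers, both UT arrays of 8 h lay on 1 slide and all 3 vit C arrays of 8 h on another, so at 8 h treatment and slide cannot be told apart from these 5 arrays. The UT cells of 96 h were the only group present on both slides (2 arrays on the slide of the vit C 8 h arrays, 1 on the slide of the UT 8 h arrays). The difference between those arrays, called the slide difference here, is therefore given for most named genes that passed, by the brightest probe, and for lists where it bears on them. It is a value from other flasks, with no replicate on 1 side, and 1 of the 2 arrays, the third UT array of 96 h, stood apart from its group with an array weight of 0.139. The value from the second UT array of 96 h alone is added for some of the genes named where it differed from that mean. On the 8 h arrays the 75th percentile of the signal was 431.7 to 585.4, and 60.8% to 68.7% of probes were well above background. Across the genes measured, Pearson's r was 0.9918 between the UT arrays, 0.9896 to 0.993 among the vit C arrays and 0.977 to 0.9805 between the groups.

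Signals are given as log2 of the processed signal minus the array's 75th percentile, so that a value of 0 equals that percentile, and a change is the vit C mean minus the UT mean on this scale. A gene passed in limma when a measured probe changed by 1 log2 unit or more with a q, the p-value after Benjamini-Hochberg adjustment, no higher than 0.05. After 4397 genes with probes of opposing sign were removed, 16734 were tested and 111 passed. Of these 72 rose with vit C (0.43% of the genes tested) and 39 fell (0.233%), against 733 and 366 at an unadjusted p. The median change over all genes measured was -0.09, and 90% of them lay between -0.74 and 0.91. In 108 of the 111 the arrays of the groups did not overlap for the brightest probe; over all genes with values on every array 17.9% did not overlap with vit C higher and 29.6% with vit C lower. These counts rested on few arrays: with the second UT array left out 6 genes passed, with the first 27, with vit C array 1, 2 or 3 left out 18, 14 and 62. With slide fitted as a fixed block 0 of the 111 passed in limma, although by brightest probe 68 of the 72 rises and all 39 falls kept their direction (14088 of all 21131 genes measured did), and 34 rises and 30 falls still passed at an unadjusted p. The block takes its slide term for 8 h from the same UT arrays of 96 h. A change with the block is therefore the change minus the slide difference, and not a separate check. In bulk RNA, fewer cells that express a gene and less RNA per cell cannot be told apart.

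Curated mRNA records made up 27 of the 39 falls, which is 69.2%, against 63.2% of all genes measured. The slide difference of the 39 had a median of -0.04 (-0.15 with the second UT array of 96 h alone) and ran from -0.68 to 0.69, with 0 genes at or beyond 1 in either direction and 29 of 39 within 0.5, where 68.1% of all genes measured lay. Over all genes measured, 5.46% had a slide difference of at least 1 and 3.66% of at most -1. With slide as a fixed block, which subtracts the slide difference, the median fall was -1.21, against -1.24 without it. The median SE went from 0.22 to 0.36, and 30 of 39 kept a fall of 1 log2 unit or more. Among the others SOCS3 was at -0.99 with the block, the EST BG114486 at -0.80 and CORO2B at -0.40.

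**Figure D1:**
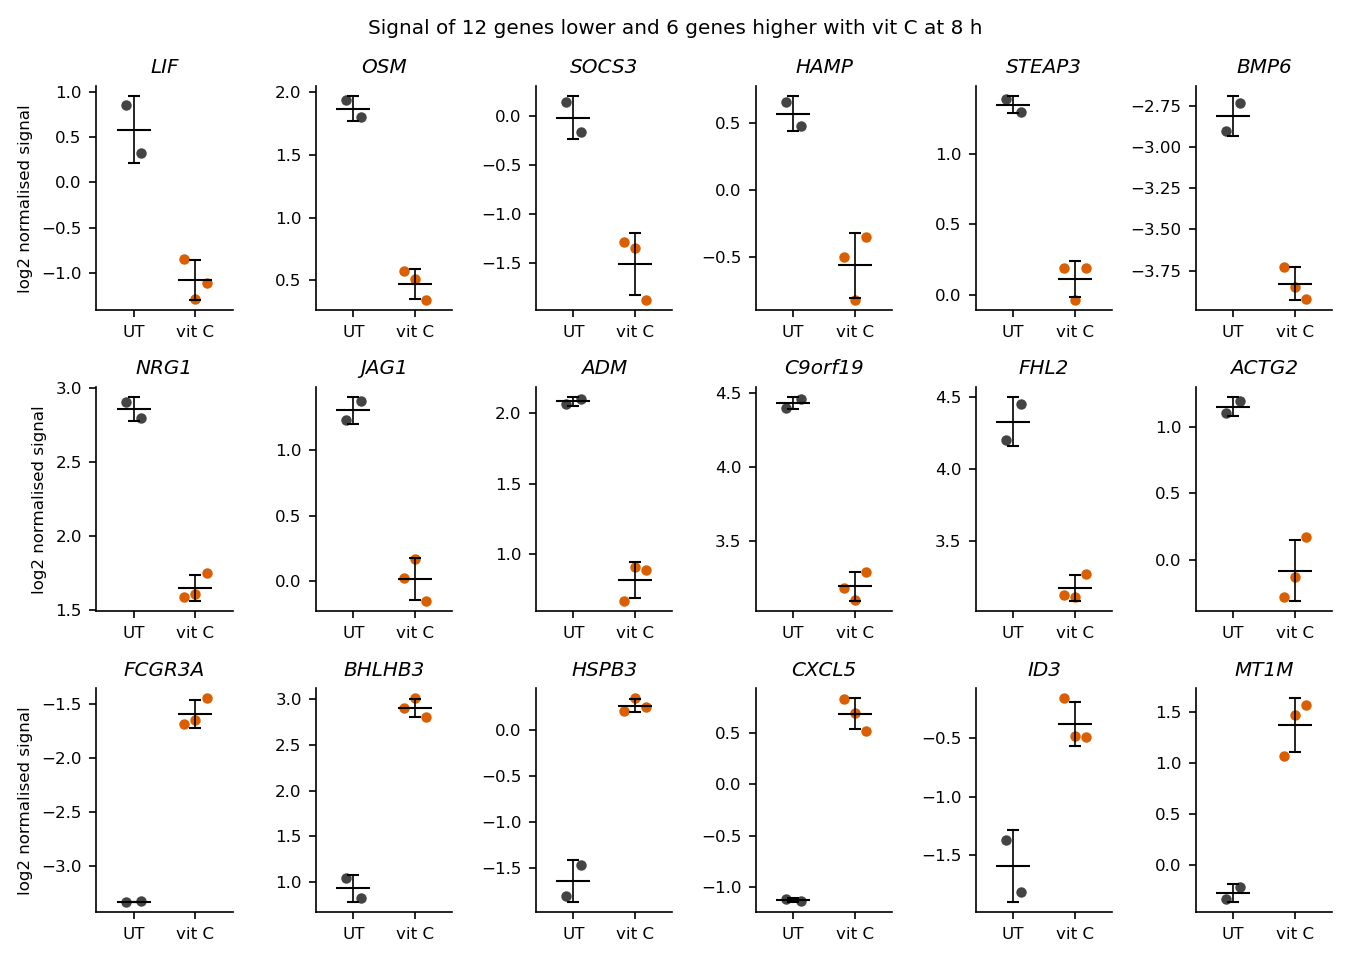
Log2 normalised signal (log2 processed signal minus the array's 75th percentile, y axes on separate scales) of 12 genes that fell and 6 that rose with vit C at 8 h. Grey points are the 2 UT arrays, orange points the 3 vit C arrays, and bars give the mean ± SD. In every panel the 2 groups of arrays do not overlap, as in 108 of the 111 genes that passed. For OSM the UT arrays are at 1.94 and 1.80 and the vit C arrays at 0.34 to 0.57.

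A pair of IL-6 family ligands, and a feedback inhibitor of their receptor, fell. LIF, leukaemia inhibitory factor, was at 0.85 and 0.32 in the UT arrays and at -0.84, -1.29 and -1.11 in the vit C arrays. OSM, oncostatin M, was at 1.94 and 1.80 against 0.57, 0.51 and 0.34. In both genes every vit C array lay below every UT array. LIF fell by 1.66 on the log2 scale (SE 0.24, q 0.0131) and OSM by 1.40 (SE 0.18, q 0.00553), with slide differences of -0.52 and -0.04. SOCS3, which is induced by these cytokines through STAT3 and blocks signalling at their receptor, was at 0.14 and -0.17 in UT and at -1.29, -1.35 and -1.88 in vit C arrays. The third vit C array was the lowest, and the groups did not overlap. SOCS3 fell by 1.49 (SE 0.26, q 0.0228, slide difference -0.50), and its dimmer second probe had a change of -1.14 with a q of 0.124.

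Few other genes of the pathway passed. Of 19 measured genes of the IL-6 family and its JAK and STAT signalling 14 were tested. Of these 0 passed as higher and 2 as lower, the ligands above, and the list's median was -0.14 beside -0.09 over all genes. The receptor chains IL6R (0.14) and OSMR (-0.06) and the kinase JAK2 (-0.04) did not pass, and IL6ST (-0.25), JAK1 (0.49) and STAT3 (0.05) had probes of opposing sign and were not tested. IL27, another ligand that signals through IL6ST, had a change of 1.10 with a q of 0.222. Among 19 feedback genes of the pathway, 12 of them tested, 1 passed as lower, SOCS3, and 1 as higher, PIAS4, with a median of -0.15. SOCS2 was above background on both UT arrays and on 0 of 3 vit C arrays and was at least 1.47-fold higher in UT cells by its brightest probe, but its probes had opposing signs and it was not tested. PIAS4, an inhibitor of STAT signalling and a SUMO ligase, passed through a dim probe: that probe was at -7.76 and -7.25 in UT and at -3.45, -3.23 and -2.95 in vit C arrays, with 0 of 2 UT arrays above background, and was at least 4.03-fold higher with vit C (q 0.0161). The brighter probe, on the curated mRNA, was at -0.74 and -0.58 against -0.62, -0.86 and -0.46, a change of 0.01 (SE 0.43, q 0.995). Its slide difference was -0.63, or 0.37 with the second UT array of 96 h alone. The 2 probes of PIAS4 therefore disagreed, and only the dim one passed.

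Among iron-handling genes 3 fell. HAMP encodes hepcidin, the peptide hormone that degrades the iron exporter ferroportin. It was at 0.66 and 0.48 in UT arrays and at -0.50, -0.82 and -0.35 in vit C arrays. All 3 vit C arrays lay below both UT arrays, and the fall was 1.13 (SE 0.18, q 0.019, slide difference -0.08). BMP6, the bone morphogenetic protein that drives hepcidin transcription in the liver, was at -2.90 and -2.73 against -3.73, -3.85 and -3.92. It fell by 1.02 (SE 0.20, q 0.0456, slide difference 0.03). STEAP3, a reductase of ferric iron in endosomes, was at 1.39 and 1.30 against 0.19, -0.04 and 0.19. It fell by 1.24 (SE 0.18, q 0.0133, slide difference -0.09), while its dimmer probe changed by -0.32 with a q of 0.79. Of 17 iron genes measured 13 were tested, and 0 passed as higher and 3 as lower, those named, where 0.233% of all genes tested fell. The median of the 17 was -0.18. The ferritin chains FTH1 (0.33, q 0.536) and FTL (0.08, q 0.855), the transferrin receptor TFRC (-0.17) and haem oxygenase HMOX1 (0.20, q 0.77) did not pass. The summed signal of the list was 693 to 727 in UT and 755 to 941 in vit C arrays.

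Among hypoxia-responsive genes 2 fell. ADM, adrenomedullin, a vasodilator peptide and a classical HIF target, was at 2.06 and 2.10 in UT arrays and at 0.67, 0.91 and 0.89 in vit C arrays. The groups were separated by more than the spread of either, and ADM fell by 1.26 (SE 0.21, q 0.019, slide difference -0.21). EGLN3, a HIF prolyl hydroxylase that uses ascorbate and is itself a HIF target, was at -4.89 and -3.13 against -7.00, -7.05 and -7.27. It was well above background on both UT arrays and on 0 of 3 vit C arrays, so its level in UT cells was at least 1.87-fold higher (q 0.0402, slide difference 0.69). EGLN3 was thus measured through the UT arrays alone, and its q rests on vit C signals that were not well above background. Of 29 HIF targets measured 19 were tested, and 0 passed as higher and 2 as lower. Of all genes tested 0.233% fell. Of the 29 HIF targets 24 were below 0, and their median was -0.27 beside -0.09 over all genes. Their slide difference had a median of -0.20. Values of other members were -0.45 for BNIP3, -0.27 for SLC2A1 and 0.06 for LDHA, none of which passed, and -0.51 for VEGFA and -0.28 for PGK1, which had probes of opposing sign and were not tested. Among 26 ascorbate-dependent HIF hydroxylases and demethylases, 23 of them tested, EGLN3 alone passed, with the limit just given. Their median was -0.14. Among 10 collagen hydroxylases none passed (0 in limma, 1 lower at an unadjusted p and 1 by the methods' t-test), with a median of -0.25. The collagen prolyl 3-hydroxylase LEPRE1 had the lowest change of these 10, -0.69 and a q of 0.103.

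NRG1, neuregulin 1, a ligand of the ErbB receptors, was at 2.91 and 2.80 in UT arrays and at 1.59, 1.61 and 1.75 in vit C arrays. The fall was 1.21 (SE 0.17, q 0.0131, slide difference -0.03). Of its 6 probes 4 passed, with changes of -1.12 to -1.29, and the other two changed by -1.15 (q 0.0883) and -0.85 (q 0.582). JAG1, a ligand of Notch receptors, was at 1.23 and 1.37 against 0.03, 0.17 and -0.15, and fell by 1.28 (SE 0.22, q 0.0226, slide difference 0.20). BCAR1, a scaffold of integrin signalling, was at 1.94 and 1.92 against 0.97, 0.76 and 1.03, and fell by 1.01 (SE 0.17, q 0.0217, slide difference -0.04). BDKRB2, the bradykinin B2 receptor, was at -3.09 and -3.10 against -4.95, -4.57 and -4.95, with 2 of 3 vit C arrays well above background, and fell by 1.73 (q 0.00771, slide difference 0.03). In all 4 of these genes each vit C array was below each UT array, which for JAG1 was a condition for naming it. Of the 6 EGF family ligands measured NRG1 alone passed. AREG (-0.74, q 0.316) and HBEGF (-0.22, q 0.778) did not pass.

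C9orf19 and FHL2 were the brightest of the 39 falls. C9orf19, a Golgi-associated gene now named GLIPR2, was at 4.40 and 4.46 in UT arrays and at 3.18, 3.10 and 3.29 in vit C arrays, a fall of 1.24 (SE 0.20, q 0.019, slide difference -0.08). FHL2, a LIM-domain cofactor of serum response factor and other regulators, was at 4.20 and 4.45 against 3.12, 3.11 and 3.27, a fall of 1.16 (SE 0.20, q 0.0229, slide difference 0.05). ACTG2, smooth-muscle gamma actin, was at 1.10 and 1.19 against -0.28, -0.13 and 0.17, a fall of 1.23 (SE 0.19, q 0.0183, slide difference 0.25). No vit C array reached a UT array in any of the 3, which was a condition for naming them. GHRL, the precursor of ghrelin, fell by 1.17 (q 0.0229, slide difference 0.37). MMP3, the matrix protease stromelysin 1, was at -4.48 and -4.25 in UT and at -6.26, -7.14 and -6.76 in vit C arrays, none of which was well above background, so it was at least 1.47-fold higher in UT cells (q 0.0149, slide difference 0.63, or 0.03 with the second UT array of 96 h alone). CYR61, a matrix-bound immediate early protein, passed through 1 of its 3 probes only (-1.58, q 0.0257), and its brightest probe changed by -0.88 with a q of 0.223 and a slide difference of -0.10 (-0.53 with that array alone). Of 24 matrix and metalloproteinase genes MMP3 alone passed, and MMP9, the brightest, changed by -0.52 with a q of 0.377.

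Promoters of 4 genes that fell are printed to show windows with and without the motifs searched, and they were picked after the search. They are the 250 bases before the annotated start, 5′ to 3′, from the RefSeq table for GRCh38.p14: HAMP at chr19:35282278-35282527 on the + strand, SOCS3 promoter 1 at chr17:78360926-78361175 on the - strand, FHL2 promoter 1 at chr2:105438514-105438763 on the - strand and ACTG2 at chr2:73892758-73893007 on the + strand. Capitals mark a match on either strand to the STAT element TTCNNNGAA, the core of the hypoxia response element ACGTG, the AP-1 element TGANTCA, the cAMP response element TGACGTCA or the CArG box of serum response factor.
HAMP: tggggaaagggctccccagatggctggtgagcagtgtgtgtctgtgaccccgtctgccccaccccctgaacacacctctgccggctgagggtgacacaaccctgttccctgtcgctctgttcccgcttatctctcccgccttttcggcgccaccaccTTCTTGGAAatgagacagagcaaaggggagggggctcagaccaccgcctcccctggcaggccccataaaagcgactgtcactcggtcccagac
SOCS3: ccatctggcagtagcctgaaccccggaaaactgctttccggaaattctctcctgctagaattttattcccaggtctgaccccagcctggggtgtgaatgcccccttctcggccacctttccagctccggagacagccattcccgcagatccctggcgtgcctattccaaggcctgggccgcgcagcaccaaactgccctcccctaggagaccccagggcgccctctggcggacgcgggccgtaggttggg
FHL2: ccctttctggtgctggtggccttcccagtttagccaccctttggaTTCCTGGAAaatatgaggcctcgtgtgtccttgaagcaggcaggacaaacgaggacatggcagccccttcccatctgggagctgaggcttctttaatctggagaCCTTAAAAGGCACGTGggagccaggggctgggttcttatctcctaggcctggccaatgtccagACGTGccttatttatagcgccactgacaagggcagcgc
ACTG2: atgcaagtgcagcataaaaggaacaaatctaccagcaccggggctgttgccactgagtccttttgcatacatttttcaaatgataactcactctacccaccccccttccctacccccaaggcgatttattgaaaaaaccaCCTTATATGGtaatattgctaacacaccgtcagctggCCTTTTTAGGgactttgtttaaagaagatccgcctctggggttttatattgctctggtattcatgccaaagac

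In HAMP a STAT element began 93 bases before the start. FHL2 held a STAT element at 205 bases, a CArG box at 101 and hypoxia cores at 91, 90 and 38, where the first 2 are the palindrome CACGTG read on both strands. ACTG2 held CArG boxes at 110 and 73 bases, and the window of SOCS3 held none of the 5 motifs. Nor did those of ADM and EGLN3, the HIF targets that fell, or promoter 4 of FHL2. Of the 39 genes that fell, 19 matched the promoter table, with 35 promoters. Among those promoters 7 held a STAT element (20%), 4 a CArG box (11.4%), 4 a hypoxia core (11.4%), 2 an AP-1 element (5.71%) and 1 a cAMP response element (2.86%). Among all 35114 promoters of that length the shares were 6.57% for the STAT element, 1.16% for the CArG box, 18.5% for the hypoxia core, 6.57% for the AP-1 element and 1.65% for the cAMP response element. Of the 72 rises 13 matched, and among their 23 promoters 30.4% held a hypoxia core, 13% a STAT element, 8.7% an AP-1 element, 4.35% a CArG box and 0% a cAMP response element. Several promoters belong to 1 gene and overlap, so the counts are not of independent windows, and a match is a run of letters and not a measured site.

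The genes that rose were of another kind. Curated mRNA records made up 24 of the 72, or 33.3%, and 18 came from a collection of noncoding RNAs, 13 from single cDNA or EST records, 8 from EST assemblies and 7 from predicted transcripts. For the 72 the median slide difference was 0.65 (70 had a value), with 25 at 1 or more and a range of -0.98 to 3.37, against a median of 0.01 over all genes measured. With slide as a fixed block, which subtracts the slide difference, the median rise went from 1.83 to 1.01. The median SE went from 0.33 to 0.46, and 37 of 72 kept a log2 fold change of at least 1. Of the 70 rises with a value, 29 had a slide difference within 0.5, as 68.1% of all genes measured did. Across 21121 genes measured, the change at 8 h and the slide difference had a Pearson's r of 0.40, and of 0.53 with the second UT array of 96 h alone. These values share probes and the pair of slides but no array, and genes are not independent replicates, so r is a description with no test.

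**Figure D2:**
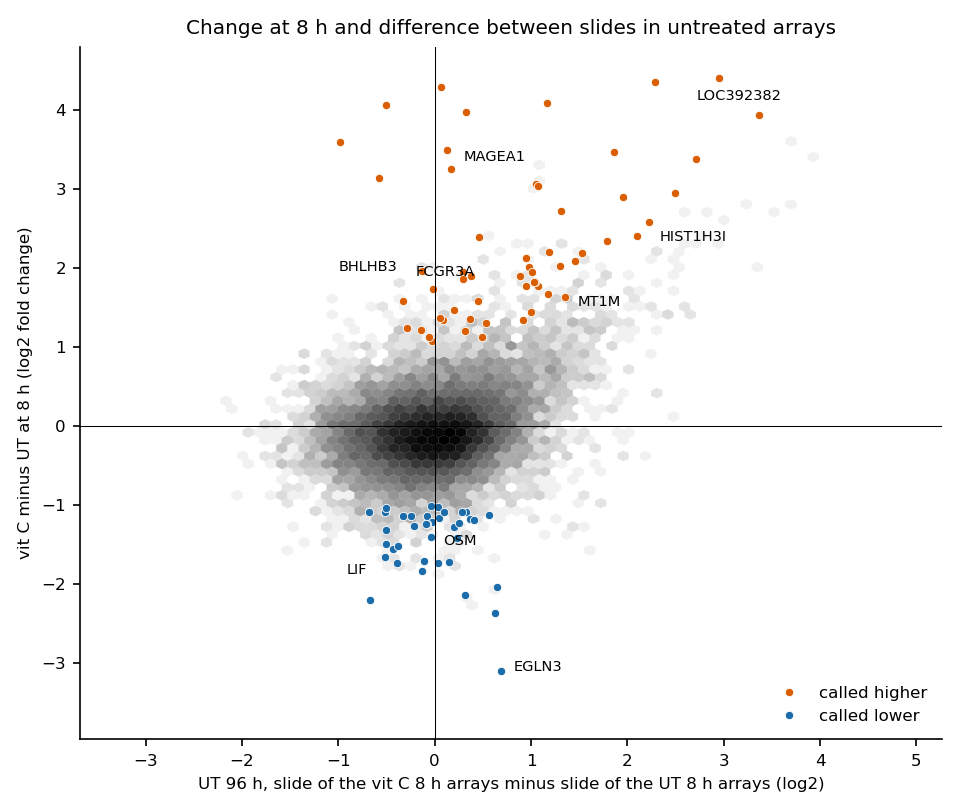
Change with vit C at 8 h (y axis, log2 fold change) against the slide difference in UT cells of 96 h (x axis, log2), both for the brightest probe. Shades of grey count the genes measured on a log scale, and orange and blue points are the genes that rose and fell through that probe. The falls sit close to 0 on the x axis (range -0.68 to 0.69), and the rises extend to 3.37.

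Among the rises with a slide difference within 0.5 were several known genes. FCGR3A, the low-affinity IgG receptor CD16a, was at -3.34 and -3.33 in UT arrays and at -1.69, -1.65 and -1.45 in vit C arrays. It rose by a log2 fold change of 1.74 (SE 0.18, q 0.00315) with a slide difference of -0.02. A near-identical gene for CD16b exists, and whether this probe separates the transcripts was not tested. BHLHB3, a clock-linked repressor now named BHLHE41, was at 1.04 and 0.83 against 2.90, 3.01 and 2.80, a rise of 1.97 (SE 0.26, q 0.00703, slide difference -0.13, or -0.57 with the second UT array of 96 h alone). HSPB3, a small heat shock protein, was at -1.80 and -1.47 against 0.20, 0.34 and 0.25, a rise of 1.90 (SE 0.20, q 0.00315, slide difference 0.38). In each of these genes the lowest vit C array lay above the highest UT array by more than the range within either group. SEMA3A, a guidance cue that signals through neuropilin, rose by 1.13 (q 0.0396, slide difference -0.06). ID3, an inhibitor of basic helix-loop-helix factors, was at -1.37 and -1.81 against -0.16, -0.48 and -0.49 and rose by 1.21 (SE 0.20, q 0.0202, slide difference 0.32). TRIM68, a ubiquitin ligase, rose by 1.08 (q 0.0229, slide difference -0.03). MAGEA1, a cancer-testis antigen, was at -7.71 and -7.03 against -3.98, -3.72 and -4.68, with 0 of 2 UT arrays above background, and was at least 2.14-fold higher in vit C cells (q 0.00315, slide difference 0.17, or -0.24 with that array alone).

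Other known genes rose where the slides also differed. CXCL5, a chemokine for neutrophils, was at -1.12 and -1.14 in UT arrays and at 0.83, 0.70 and 0.52 in vit C arrays, a rise of 1.82 (SE 0.32, q 0.0229), with a slide difference of 1.04, or 0.61 with the second array alone. MT1M, a metallothionein, was at -0.33 and -0.21 against 1.07, 1.47 and 1.56, a rise of 1.63 (SE 0.33, q 0.048), with a slide difference of 1.35. Its other 2 probes did not pass, 1 with a change of 0.29 (q 0.834) and 1 with 0 of 2 UT arrays above background (q 0.204). FTHL17, a ferritin-like gene of the testis, rose by 1.78 (q 0.019, slide difference 0.95) and the histone gene HIST1H3I by 2.58 (q 0.0369, slide difference 2.23). In these 4 genes the change at 8 h and the slide difference had the same sign. With slide as a fixed block, which subtracts the slide difference, the values were 0.78 for CXCL5, 0.29 for MT1M, 0.83 for FTHL17 and 0.35 for HIST1H3I.

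Several large rises belonged to records with little known function. ENST00000343519, an Ensembl transcript, was at -1.58 and -2.93 in UT arrays and at 3.05, 2.53 and 0.85 in vit C arrays, a log2 fold change of 4.40 (SE 0.81, q 0.031, slide difference 2.95). C10orf39 was at -2.73 and -0.43 against 2.71, 2.39 and 0.92, a change of 3.59 (SE 0.70, q 0.0419, slide difference -0.98). THC2535753, an EST assembly, changed by 3.49 (q 0.00359, slide difference 0.13). Within these 3 records the vit C arrays spread over more than 1 log2 unit, with the third vit C array lowest. TMCC2, a transmembrane protein, was at -2.40 and -2.10 against 1.61, 0.81 and 0.26, a rise of 3.14 (q 0.0257), and NPBWR1, a neuropeptide receptor, rose by 3.07 (q 0.0456). The slide difference was -0.58 for TMCC2 and 1.05 for NPBWR1, but 0.33 and 2.53 with the second UT array of 96 h alone, and that of C10orf39 went likewise from -0.98 to -0.27. LOC392382, a predicted transcript, had 0 of 2 UT arrays above background and was at least 11.5-fold higher in vit C cells (q 0.0261), with a slide difference of 3.37. LOC196993, LOC283236 and the noncoding record HsapiAK025597 were likewise at least 3.72-fold, 4.65-fold and 5.37-fold higher, with slide differences of -0.51, 1.17 and 0.07 (-0.23, 2.13 and 0.73 with the second array alone).

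Kinds of transcript record differed in how many members moved. Of 588 predicted transcripts 24.7% had a log2 fold change of at least 1 and 0.85% of at most -1, with a median change of 0.28 and a median slide difference of 0.49. Of 13363 curated mRNAs 2.13% and 1.99% did, with medians of -0.12 and -0.01. Ensembl transcripts (9.1%), EST assemblies (8.74%) and single cDNA or EST records (6.89%) lay between. In the noncoding collection 873 genes were tested, all 18 that passed in limma were higher, and the median of its 1389 genes was -0.13, with 5.83% at least 1 and 4.25% at most -1. The probes of the genes that rose had a median GC content of 40%, those of the falls 45% and all genes 43.3%.

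**Figure D3:**
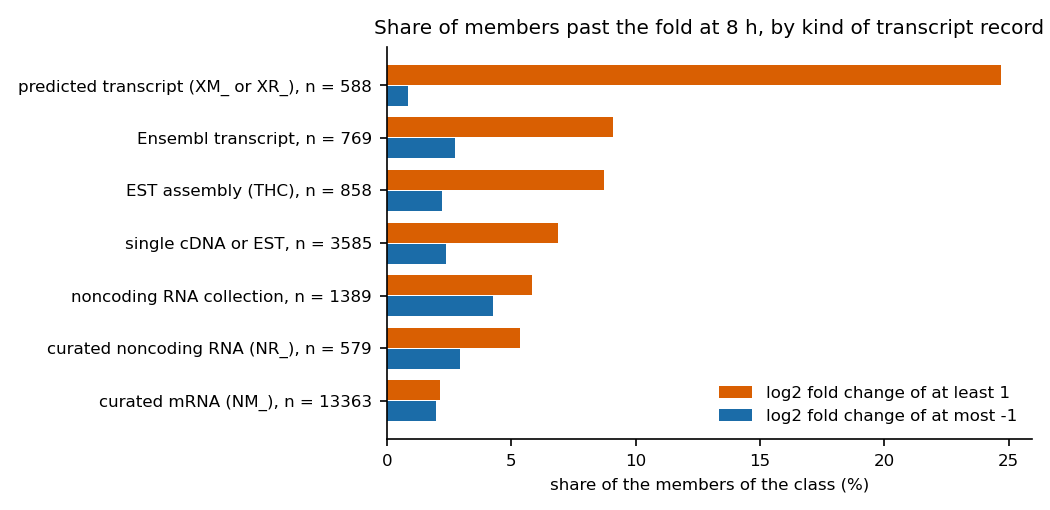
Share of the genes of each kind of transcript record (x axis, percent of the genes measured, number in the label) with a log2 fold change of at least 1 (orange) or at most -1 (blue) at 8 h. Predicted transcripts stand apart with 24.7% higher and 0.85% lower, while curated mRNAs have 2.13% and 1.99%.

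Regulators that the study names for 8 h were measured for POU3F3, SOX17, SOX18, EVX1 and PIAS4. All are developmental transcription factors except PIAS4. SOX17 was at a mean of 0.37 in UT and 3.42 in vit C arrays, a change of 3.05 (SE 0.90, q 0.154). SOX18 changed by 2.31 (SE 0.57, q 0.0893), EVX1 by 1.90 (SE 0.69, q 0.25) and POU3F3 by 1.55 (SE 0.89, q 0.519). In each of these 4 the vit C arrays lay above the UT arrays without overlap, and none passed at the adjusted threshold. At an unadjusted p, 4 of the 5 regulators passed as higher in limma and 5 by the methods' t-test. The probes of SOX17, SOX18, EVX1 and POU3F3 had a GC content of 68.3% to 81.7%, against a median of 43.3% over all genes. Slide differences were 0.37 for SOX17, 0.65 for SOX18, 0.63 for EVX1 and -0.59 for POU3F3. With the second UT array of 96 h alone these were 2.65, 1.93, 2.21 and 1.85, so the 2 arrays on that slide disagreed. Zinc finger genes, 404 of which were measured, had a median of -0.03, with 102 higher and 84 lower without overlap (17.9% and 29.6% of all genes were), 14 higher and 1 lower at an unadjusted p, and 1 past the test, ZNF678. ZNF678 passed through its dimmer probe, with 0 of 2 UT arrays above background and a level at least 1.74-fold higher with vit C (q 0.0456). Its brighter probe changed by 0.89 with a q of 0.373. That probe had a slide difference of 1, or 0.31 with the second UT array of 96 h alone. Of the target genes the study names, VDR (-0.56, q 0.26), PCSK6 (-0.35, q 0.562), MUC1 (-0.09, q 0.915) and MMP7 (0.27, q 0.691) did not pass.

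Immediate early genes, the first to answer growth factors and stress, were mostly below 0. Of 27 measured 20 were below 0 and 15 were lower without overlap, against 29.6% of all genes. The median was -0.37 beside -0.09 over all genes, and 1, CYR61, passed. Values below 0 were common in other lists too, with 25 of 28 mitosis genes and 9 of 10 collagen hydroxylases. By contrast 18 of 31 interferon-stimulated genes were above 0. FOS was at 5.12 and 4.86 in UT arrays and at 4.38, 4.04 and 3.34 in vit C arrays, a change of -1.07 with a q of 0.308. FOSB was at 0.58 and 0.27 against -0.70, -0.60 and -0.95, a change of -1.18 with a q of 0.0846. ZFP36, which destabilises cytokine mRNAs, changed by -0.90 with a q of 0.0455, short of the fold threshold. EGR1 (0.02) and ATF3 (0.08) did not pass, and JUNB (0.08) was not tested. The slide difference of the list had a median of -0.10, and of the 14 MAP kinase phosphatases and sproutys none passed (0 in limma, at an unadjusted p and by the methods' t-test), with a median of -0.27.

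Sterol and stress response genes were mostly below 0, as was the median of all genes (-0.09), and none passed. In the list of sterol and fatty acid synthesis 30 genes were measured, 24 were below 0 and 21 were lower without overlap (29.6% of all genes), with a median of -0.35 and a median slide difference of 0.24. None passed in limma, with 1 lower at an unadjusted p and 0 by the methods' t-test. DHCR7, which makes cholesterol in the last step of its synthesis, was at 1.77 and 1.71 in UT arrays and at 0.90, 0.50 and 0.85 in vit C arrays, a change of -0.99 with a q of 0.0261, just short of the fold. HMGCS1, an early enzyme of the pathway, changed by -0.75 (q 0.334), while SQLE, the brightest, changed by 0.02 (q 0.983). Of 18 genes of the unfolded protein and integrated stress responses 14 were lower without overlap (29.6% of all genes), with a median of -0.38 and a median slide difference of -0.27, and none passed (0 in limma, 1 lower at an unadjusted p, 0 by the methods' t-test). TRIB3 was at -0.99 (q 0.174) and XBP1 at -0.70 (q 0.128).

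Inflammatory, antioxidant and housekeeping genes had medians between -0.21 and 0.18. Of 22 chemokines CXCL5 alone passed, with a median of 0.04 and a median slide difference of 0.49. CCL3 (-0.65, q 0.139) and CCL4 (-0.44, q 0.307) were lower and CCL1 (1.01, q 0.0709) higher in all vit C arrays, none past the test. IL8 changed by 2.24 in its brightest probe, was not tested because its probes had opposing signs, and had a slide difference of 3.47. Among the cytokines IL1B (0.14, q 0.821) and TNF (-0.44, q 0.475) did not pass, and for 15 of them the median was -0.03. The 30 NRF2 targets and antioxidant enzymes had a median of -0.07, the 12 vitamin C and glucose transporters -0.21, 31 interferon-stimulated genes 0.07, 14 MHC class II genes 0.18, 85 ribosomal protein genes -0.03 and 10 housekeeping genes -0.01. None of these 6 lists held a gene that passed, and at an unadjusted p and by the methods' t-test they held 2 in all, both ribosomal and higher.

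The same genes were measured at the later time points, in other flasks with their own UT controls. At 24 h all UT arrays lay on the slide of the UT 8 h arrays and both vit C arrays on the slide of the vit C 8 h arrays, so treatment and slide cannot be told apart there either. At 48 h both UT arrays lay on the UT 8 h slide and 1 of the 2 vit C arrays on the vit C 8 h slide, and at 96 h both vit C arrays lay on a slide of their own. Of the 72 rises 29, 41 and 9 also passed as higher at 24, 48 and 96 h, which is 40.3%, 56.9% and 12.5% of the rises and 15.3%, 9.45% and 1.75% of the genes that rose at those times. For all genes tested, 1.11%, 2.56% and 2.96% rose at 24, 48 and 96 h and 0.97%, 2.04% and 2.71% fell. Of the 39 falls 13, 13 and 5 passed as lower, or 33.3%, 33.3% and 12.8% of the falls and 7.88%, 3.76% and 1.06% of the falls of those times. The only genes that passed in the other direction did so at 96 h, 1 of the rises and 2 of the falls. The median change of the rises was 1.28, 1.31 and 0.37 and that of the falls -0.81, -0.73 and -0.18. At 48 h the 2 vit C arrays lay on different slides, and the rises had medians of 1.28 on the slide of the vit C 8 h arrays and 1.47 on the other, the falls -0.79 and -0.85.

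**Figure D4:**
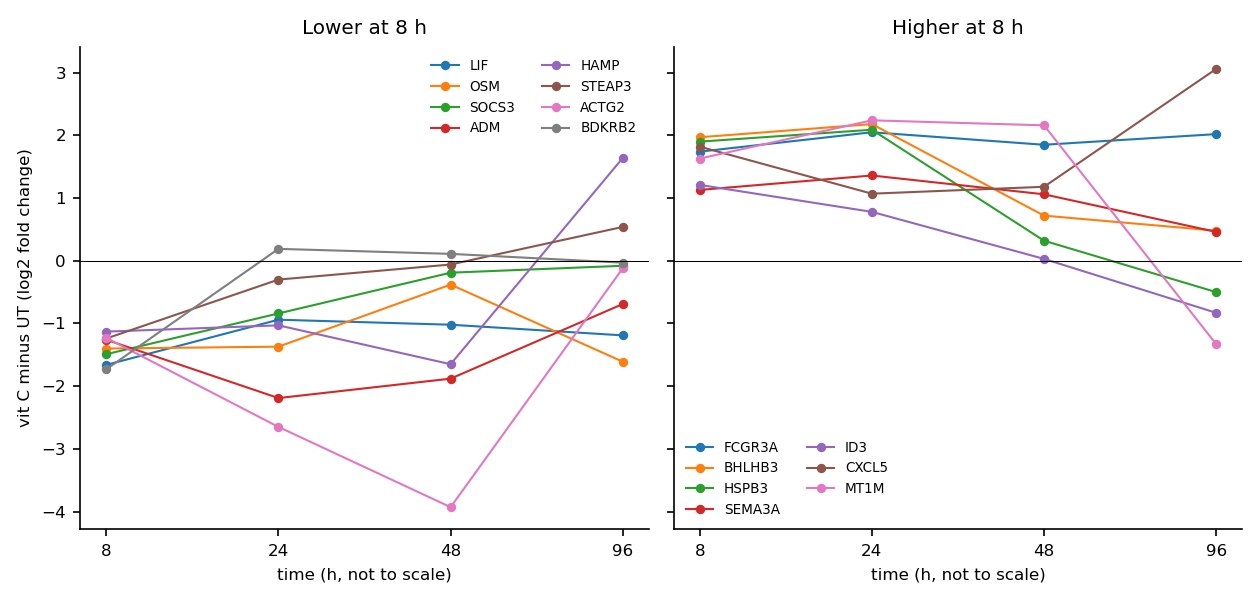
Log2 fold change of vit C over UT cells (y axis) at 8, 24, 48 and 96 h (x axis, not to scale) for 8 genes that fell (left) and 7 that rose (right) at 8 h, each line 1 gene by its brightest probe. FCGR3A stays between 1.74 and 2.05, ACTG2 runs from -1.23 to -3.93 and back to -0.12, and HAMP changes sign at 96 h, to 1.64.

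By an F test in limma of the differences between the 4 times, 1.19% of all genes measured differed at a q no higher than 0.05. FCGR3A passed at all 4 times, with log2 fold changes of 2.05 (q 9.68e-05), 1.85 (q 0.000354) and 2.02 (q 2.79e-05) after 8 h. ADM was lower still at 24 h (-2.19, q 0.000177), then -1.88 at 48 h (q 0.000761) and -0.69 at 96 h. OSM had changes of -1.37 at 24 h (q 0.00167), -0.38 at 48 h and -1.61 at 96 h (q 0.000138). LIF was at -0.94 at 24 h (q 0.0625), at -1.02 at 48 h (q 0.0461) and at -1.19 at 96 h. At 96 h the probes of LIF had opposing signs and it was not tested. SOCS3 was at -0.84, -0.19 and -0.08. The change of ACTG2 was -2.65 at 24 h (q 2.03e-05), then -3.93 at 48 h (q 6.18e-07), and it differed between the 4 times (F test in limma, q 0.000119). HAMP had changes of -1.03 at 24 h (q 0.0117), -1.65 at 48 h (q 0.000662) and 1.64 at 96 h (q 0.000138), where both vit C arrays lay on a slide of their own, and the difference between times had a q of 0.000143. HSPB3 rose at 8 and 24 h (2.09, q 0.00022) and was at 0.32 and -0.50 afterwards (q between times 0.00164).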

How the data were processed

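RNA of PMA-differentiated THP-1 cells was measured on 19 Agilent one-colour arrays, each taken as 1 replicate of its labelled group. Per the study's methods, flasks were set up in triplicate and RNA of lower integrity was not arrayed. The authors scanned the arrays and deposited spot intensities from Feature Extraction 10.5.1.1 (per the file headers), detrended within the array, with low signals replaced by surrogates, and not normalised between arrays. They also deposited log2 values shifted to the 75th percentile, which served as an alternative. Here the processed intensity was taken to log2, outlier spots were left out (30 to 79 per array), spots of a probe were averaged, and each array's 75th percentile was subtracted. Of 52857 spots, 51538 were not controls (50238 probes), and 0 were saturated.

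A model of 8 group means over 19 arrays was fitted with limma 3.58.1 (lmFit, eBayes, 2-sided) in R 4.3.3. As in the methods, genes with opposing probes were removed, and a gene passed with a change of 1 log2 unit or more and a q (Benjamini-Hochberg, over all probes kept) no higher than 0.05. Each gene is given by its brightest probe. A further 28 genes not well above background passed and are not described. Where no array of a group was above background, the fold is a lower bound, from the mean of the bright group against, per array, the higher of the dim probe and the lowest signal well above background. The number of arrays limits the precision.

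Genes were named by rule: the 15 largest rises and falls among non-overlapping genes above background on all 5 arrays, called genes of each list, the 3 brightest genes of each list, genes the paper names for 8 h, and the 5 largest one-sided changes in each direction. Other genes (AF116619, AK097965, BCAR1, BDKRB2, BHLHB3, CORO2B, CSN1S1, EPS15L2, FCGR3A, FTHL17, HSPB3, HsapiAK024517, ID3, LOC392382, MAGEA1, SEMA3A and TRIM68 among those that passed, and BNIP3, CCL1, CD14, CD68, DHCR7, EGR1, FOS, FOSB, HMGCS1, IL27, IL6ST, IL8, JAK1, JAK2, JUNB, LDHA, OSMR, SOCS2, STAT3, TFRC, TRIB3, VEGFA, XBP1 and ZFP36) and the promoters printed were chosen after values were seen. The members, lists and rules were chosen with earlier results of these data known, and lists were described by counts and medians without a set test. Gene names are those of the array design. Promoters came from RefSeq for GRCh38.p14. Scripts were tested on simulated data.

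Alternatives were the methods' t-test, the 5 arrays alone, an intensity trend, array weights, an unadjusted p, other normalisations (quantile, percentile over detected probes, normexp with an offset of 50, the deposited values), outliers kept, dim probes left out, opposing probes kept, means of probes, slide as a block (fixed, random), a block for the replicate number, detection in both groups and each array left out. Leaving out the third UT array of 96 h, with or without the slide block, and the unadjusted p with the block were chosen after seeing the data.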

Additional observations from a re-analysis of the deposited data

Results flagged for a closer look

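For 17 of the 111 genes that passed at 8 h, the change with vit C differed between 8, 24, 48 and 96 h by an F test in limma on the 4 effects, with q adjusted over all probes. Of all genes measured 1.19% did, but the 111 were chosen for a large change at 8 h, which is 1 of the effects tested, so the shares cannot be set against each other. At 96 h both vit C arrays lay on a slide of their own, and the part of that slide was not tested. Among the falls, ACTG2 (q 0.000119) was at -1.23, -2.65, -3.93 and -0.12, and HAMP (q 0.000143) at -1.13, -1.03, -1.65 and 1.64. CSN1S1, a casein (q 0.00457), had 0 of 3 vit C arrays of 8 h above background and was at least 1.26-fold higher in UT cells there. Its fitted values later were -0.40, -1.52 and 1.44. The F test of CSN1S1 rests on a fitted value at 8 h that is not a measured level. STEAP3 (q 0.0188) was at -1.24, -0.30, -0.06 and 0.54. BDKRB2 (q 0.0248) had a change of -1.73 at 8 h only, with 0.19, 0.11 and -0.03 later. BCAR1 (q 0.0255) went from -1.01 to 0.50, C9orf19 (q 0.0321) from -1.24 through -1.87 to -0.13, and the EST BG114486 (q 0.048) from -1.13 to 0.54.

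Among the rises, HSPB3 (q 0.00164) was at 1.90, 2.09, 0.32 and -0.50, and MT1M (q 0.00521) at 1.63, 2.24, 2.16 and -1.33. ID3 (q 0.0126) went from 1.21 to -0.83. The noncoding record HsapiAK025597 (q 0.0139) was at least 5.37-fold higher with vit C at 8 h, with 0 of 2 UT arrays above background, and between -0.69 and 0.58 later, and EPS15L2 (q 0.0142) was at 1.83 and 1.99, then -0.50 and -0.28. LOC283236 (q 0.0221) and AK097965 (q 0.0357) also had 0 of 2 UT arrays above background at 8 h and were at least 4.65-fold and 2.25-fold higher with vit C, and their fitted values later were 3.41, 4.37 and -1.23, and -0.22, 0.80 and 0.05. For these dim records the F test rests on fitted values at 8 h that are not measured levels. HsapiAK024517 (q 0.0276) was at 1.37 and then -0.75, -0.43 and 0.03, and AF116619 (q 0.042) at 1.90, 1.22, 1.95 and -0.62. Under the alternatives to the main fit the 8 h value went down to 0.80 for EPS15L2, 0.96 for AF116619 and 0.63 for AK097965. Slide differences of these records are not given here.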

How the results depend on the processing

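No gene that passed changed direction, by the probe that passed, under the 26 alternatives. The count of 111 genes (72 higher, 39 lower) moved with the test. The methods' t-test gave 910 (696 and 214) at an unadjusted p and 10 (10 and 0) after Benjamini-Hochberg, 2 of them shared. The 5 arrays alone gave 397 (349 higher), an intensity trend 184 (140 higher), array weights 807 (594 and 213) and an unadjusted p 1099 (733 and 366). Normexp gave 208 (191 and 17, 60 shared) and leaving out dim probes 170 (112 higher). Detection in both groups left 25 falls. Slide as a fixed block gave 1 (0 and 1, TTC24, not among the 111), and 874 (353 and 521) at an unadjusted p. Without the third UT array of 96 h 333 passed (246 and 87), with all 111 among them, and with the block as well 10 (3 and 7). Quantile normalisation (138), detected-probe percentile (116), deposited values (112), outliers kept (111), opposing probes kept (94), means of probes (97) and slide as a random block (75) stayed within 1.5 times. Leaving out 1 array gave 6 to 62 genes, 5 to 31 higher and 1 to 31 lower.

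Genes also called at 24, 48 and 96 h were 42, 54 and 14, with an unadjusted p 362, 498 and 73, with the fixed slide block 0, 0 and 0, and with 1 array left out 3 to 15, 4 to 20 and 2 to 6. With the replicate number as a block 48 passed (24 and 24), 34 of them among the 111. Same-numbered arrays of the groups deviated together with correlations of 0.02 and 0.02, so they share only a number. The median change of all genes moved from -0.09 to between -0.07 and -0.02 under other scalings. Of the 42 list medians, 27 moved by more than the spread between arrays with the fixed slide block (21 without the third UT array of 96 h), 9 without the second UT array, 1 to 5 under the other settings that moved any, 6 with the mean of probes and 6 with normexp, under which the median of the vitamin C and glucose transporters went from -0.21 to -0.05 and that of the IL-6 family from -0.14 to 0. Signal over background limits the folds of the 26 genes that were measured in 1 group only.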
